A study of Mus musculus with 10 samples.

Results

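The oligodendrocyte lineage genes described here were *Olig1*, *Olig2*, *Sox10*, *Pdgfra*, *Cspg4*, *Nkx2-2* and *Ermn*, 7 genes chosen by name. They were chosen with earlier results of these data known. Of these, 6 had counts among the 14300 genes of the table, and *Sox10* was not analysed here. Read counts per gene came from sorted brain cells of *Grem1creERT; Rosa26LSLTdtomato* mouse embryos on a C57BL/6J background, collected 24 hours after tamoxifen was given to the pregnant dam. In these embryos a tamoxifen-activated Cre under *Grem1* control switches on the TdTomato reporter permanently, so TdTomato+ cells are those with *Grem1*-driven Cre activity at the time of tamoxifen and their progeny. For each of 5 mouse numbers there was a library of live TdTomato+ cells and a library of live TdTomato- cells from the same reporter genotype and tamoxifen exposure, which gave 5 libraries in each group. The study counts the numbers as 5 mice, without saying whether each is 1 embryo or several, and the dissection is described as brain in the sample labels and as dorsal telencephalon in the study's methods.

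Oligodendrocytes are the myelinating cells of the central nervous system. In the embryonic forebrain their precursors are first specified in ventral progenitor zones under hedgehog signalling, and later from other sites. The basic helix-loop-helix (bHLH) factors OLIG1 and OLIG2 specify the lineage, SOX10 and NKX2-2 act in its specification and differentiation, and the precursors carry the platelet-derived growth factor (PDGF) receptor alpha (*Pdgfra*) and the NG2 proteoglycan (*Cspg4*) on their surface. Ermin (*Ermn*) is a cytoskeletal protein of mature, myelinating oligodendrocytes. None of these genes is private to the lineage: OLIG factors are also made by ventral neural progenitors, *Pdgfra* by meningeal and perivascular fibroblasts, *Cspg4* by pericytes, and *Nkx2-2* by ventral diencephalic cells.

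The unit of level is CPM, read counts scaled to a common library size. All 6 measured genes were lower in TdTomato+ than in TdTomato- libraries at an adjusted p of 0.05 or less (edgeR's quasi-likelihood F-test with mouse number as a block). *Olig2* fell most, followed by *Olig1*, *Cspg4*, *Ermn*, *Pdgfra* and *Nkx2-2*. Of all 14300 genes, 39.4% were lower by the same test. Differentially expressed genes (DEGs) were those that also changed by at least 2 on the log2 scale, and 4 of the 6 were DEGs, namely *Olig2*, *Olig1*, *Cspg4* and *Ermn*, against 9.74% of all genes called as lower DEGs. The TdTomato- and TdTomato+ levels did not overlap for 5 of the 6, the exception being *Nkx2-2*, and 32.4% of all genes had all their TdTomato+ levels below all their TdTomato- levels. Each of the 6 genes was lower in the TdTomato+ library of 5 of 5 mice, with a two-sided exact sign-flip permutation p of 0.062, the smallest that 5 pairs can give. The table holds only genes with more than 0.5 CPM (counts over the library total) in at least 5 libraries. All 6 genes passed that limit in 5 of 5 TdTomato- libraries, whereas in TdTomato+ libraries *Pdgfra* passed it in 5, *Ermn* in 3, *Olig2* in 2, *Olig1* and *Nkx2-2* in 1 each, and *Cspg4* in 0. Genes this low can be in the table through their high population alone, so the counts of lower genes, here and for the lists below, describe the genes that passed and not all genes named. In these bulk libraries, fewer cells of a type and less RNA per cell cannot be told apart.

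**Figure D1:**
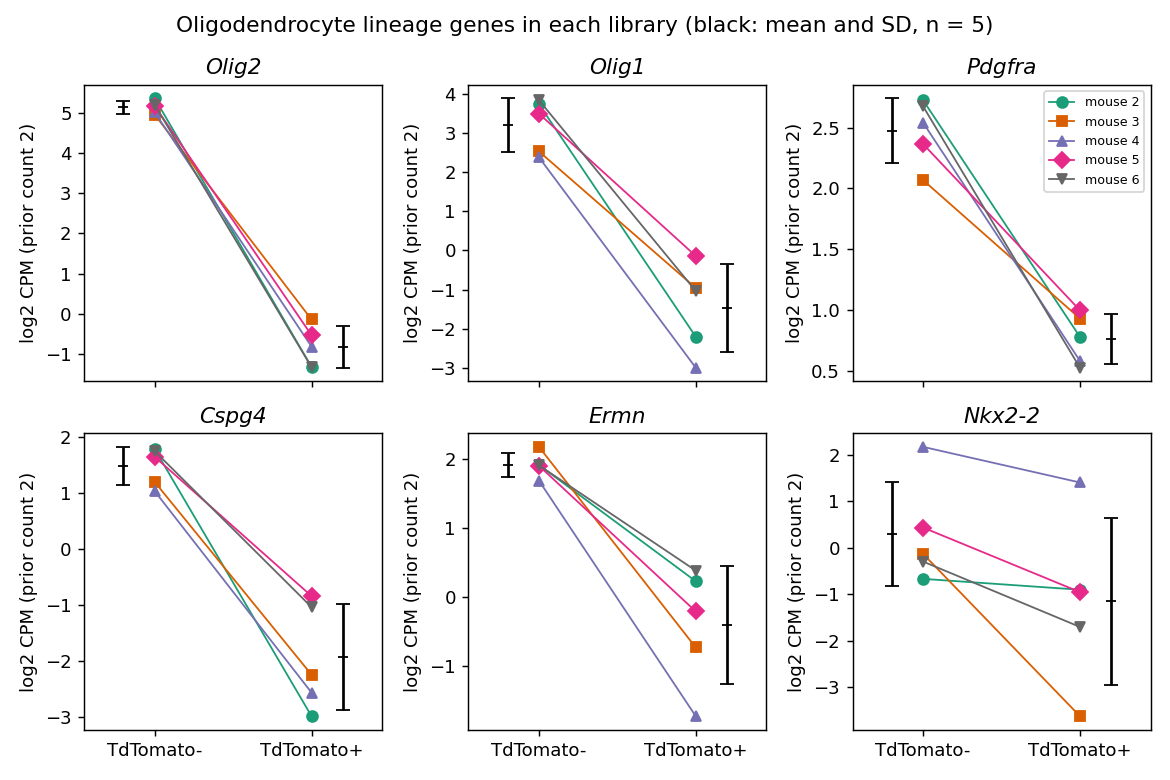
Levels of the 6 measured oligodendrocyte lineage genes as log2 CPM (prior count 2), with each panel on its own axis; lines join the TdTomato- and TdTomato+ library of 1 mouse, and black bars give the mean and SD over 5 libraries. Every line goes down from TdTomato- to TdTomato+, and only for *Nkx2-2* do the values of the groups overlap.

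The libraries held 23429034 to 27286180 counts. Levels are given as CPM scaled by the trimmed mean of M-values (TMM), and 3 counts, taken here as the lower limit of detection, amounted to 0.104 to 0.136 CPM. *Grem1*, the gene whose promoter drives the Cre, averaged 6.11 ± 0.731 CPM over the TdTomato- libraries and 63.3 ± 3.10 CPM over the TdTomato+ ones (SD, n = 5 each). It was higher in the TdTomato+ library of each mouse. The median log2 fold change of all genes was -0.01.

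*Olig2* encodes the bHLH factor that specifies oligodendrocyte precursors and, earlier, ventral neural progenitors. Its CPM in the TdTomato- libraries of mice 2 to 6 was 41.1, 31.0, 32.2, 36.0 and 36.7. In the TdTomato+ libraries of the same mice it was 0.317, 0.824, 0.486, 0.609 and 0.316. The TdTomato- libraries lay close together and the TdTomato+ libraries were all far below them, so the groups did not overlap. The TdTomato+ level was 0.772% to 2.66% of the TdTomato- level of the same mouse. The mean was 35.4 ± 4.01 CPM in TdTomato- and 0.510 ± 0.214 CPM in TdTomato+ libraries (SD, n = 5 each), a log2 fold change of -6.09 ± 0.18 (SE, edgeR adjusted p = 6.6e-09). By fold change *Olig2* ranked 14 among the 14300 genes, counted from the lowest. The TdTomato+ libraries still held 7 to 19 *Olig2* counts, above the limit of detection in each of them.

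*Olig1* encodes the related bHLH factor that acts later in the lineage, in differentiation. In the TdTomato- libraries of mice 2 to 6 its CPM was 13.3, 5.70, 5.13, 11.2 and 14.3. In the TdTomato+ libraries it was 0.136, 0.434, 0.0442, 0.826 and 0.407. Among TdTomato- libraries, mice 3 and 4 were low and mice 2, 5 and 6 high, yet every TdTomato- value lay above every TdTomato+ value. The mean was 9.91 ± 4.25 CPM in TdTomato- and 0.369 ± 0.306 CPM in TdTomato+ libraries (SD, n = 5 each), and the log2 fold change was -4.72 ± 0.34 (SE, edgeR adjusted p = 1.5e-06). The TdTomato+ libraries of mice 2 and 4 held 3 and 1 counts of *Olig1*, at or under the limit of detection.

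The 2 *Olig* genes are neighbours on the same strand. In GRCm38, *Olig2* is at chr16:91225457-91228677 on the plus strand, and its transcripts merge into 2 exonic blocks of 2530 bases in all. *Olig1* is at chr16:91269772-91271933 on the plus strand, in 1 exonic block of 2162 bases, and 41094 bases separate the gene bodies. On the other strand, *Gm15966* overlaps 7.3% of the exonic bases of *Olig1*. Since the strand setting of the counts is not given in the sources used here, reads of the overlap could belong to either gene.

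The bases just before the *Olig2* start are shown because *Olig2* had the largest fall of the 6 genes. The stretch, chr16:91225300-91225456 on the plus strand of GRCm38.p6, comes from the RefSeq promoter window of the gene, which runs from 250 bases before to 50 bases after the start, and it ends before the first annotated exonic base. Letters in capitals match CCAAT, the CCAAT box, on either strand.
Olig2 upstream: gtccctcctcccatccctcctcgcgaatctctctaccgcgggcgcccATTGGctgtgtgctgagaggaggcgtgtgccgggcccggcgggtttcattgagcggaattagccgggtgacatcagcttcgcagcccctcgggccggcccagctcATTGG
The stretch held 2 CCAAT matches, both on the minus strand. Of 32851 RefSeq promoter windows of 300 bases, 37.4% held at least 1. The *Olig2* window held 0 matches to CANNTG, the E-box that bHLH factors bind, against 72.3% of all windows with at least 1. The letters ACAAT, the core of the site that SOX factors bind, occurred on either strand in 31.0% of windows and 1 time in that of *Olig2*. A match describes letters only, and no binding was measured.

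The changes of *Olig1* and *Olig2* were compared within each mouse. With a prior count of 2, the within-mouse log2 change of *Olig1* minus that of *Olig2* was 1.31 ± 0.677 (SD, n = 5), from 0.455 to 2.07, and positive in 5 of 5 mice (two-sided exact sign-flip permutation p = 0.062, the smallest possible, and 0.062 after adjustment over 2 pairs of genes compared). With a prior count of 0.5 it was 1.11 ± 0.994, positive in 4 of 5 mice (exact sign-flip permutation p = 0.12). The exception was mouse 4, whose TdTomato+ library held 1 *Olig1* count, and where the TdTomato+ level was 0.860% of the TdTomato- level for *Olig1* and 1.51% for *Olig2*. In TdTomato- libraries the ratio of *Olig2* to *Olig1*, per kilobase of exon, was 2.65, 4.65, 5.37, 2.74 and 2.20 in mice 2 to 6. The ratio was highest in mice 3 and 4, where *Olig1* was lowest. The coefficient of variation over TdTomato- libraries was 42.9% for *Olig1* and 11.3% for *Olig2*.

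The genes most like each *Olig* gene over the 10 libraries, by the smallest root mean square (RMS) difference of log2 CPM centred on the gene's mean, were different ones. For *Olig2* they were *Sp9* and *Dlx2*, both transcription factor genes of ventral forebrain progenitors and interneurons, with RMS differences of 0.244 and 0.292. For *Olig1* they were *Bcan*, the proteoglycan brevican of precursors and astrocytes, and *2810459M11Rik*, with RMS differences of 0.400 and 0.423. All 4 genes share with the *Olig* genes the fall from TdTomato- to TdTomato+. *Bcan* was at 53.9, 17.2, 14.4, 44.9 and 45.2 CPM in the TdTomato- libraries of mice 2 to 6, low in mice 3 and 4 like *Olig1*. The microglial list, 8 of whose 10 genes had values, summed to 71.2, 15.9, 20.8, 54.9 and 61.4 CPM in the same libraries. Its sum, too, was lowest in mice 3 and 4, as were *Cspg4*, described below, and the sum of the erythroid list, at 76.8 and 105.7 CPM beside 110.7 CPM in mouse 2. *Olig2* was lowest in these mice as well, by a smaller margin. The microglial sum was 0.771 to 1.81 CPM in TdTomato+ libraries, where *C1qa*, *C1qb*, *C1qc* and *P2ry12* were at or under 3 counts in every library. The part of these lists in the *Olig1* and *Cspg4* values was not tested.

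**Figure D2:**
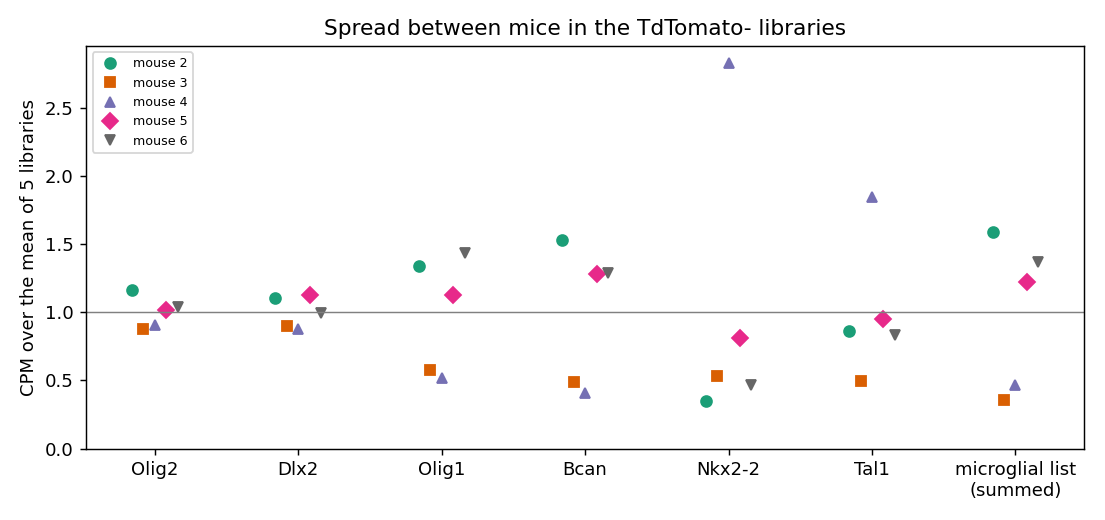
CPM of selected genes, and summed CPM of the microglial list, in each TdTomato- library over the mean of the 5 TdTomato- libraries (linear axis, 1 point per mouse). *Olig1*, *Bcan* and the microglial list were lowest in mice 3 and 4, *Olig2* and *Dlx2* lay within 0.875 to 1.16 times their mean, and *Nkx2-2* stood at 2.83 times its mean in mouse 4.

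*Pdgfra* encodes the receptor through which PDGF-A drives division and survival of oligodendrocyte precursors. Its CPM in TdTomato- libraries of mice 2 to 6 was 6.53, 4.11, 5.73, 5.07 and 6.31. In TdTomato+ libraries it was 1.63, 1.82, 1.41, 1.91 and 1.36. The groups did not overlap, and the TdTomato+ libraries varied little. The mean was 5.55 ± 0.982 CPM in TdTomato- and 1.63 ± 0.245 CPM in TdTomato+ libraries (SD, n = 5 each), a log2 fold change of -1.75 ± 0.18 (SE, edgeR adjusted p = 1.8e-05). The gene was thus lower but not a DEG, and TdTomato+ libraries kept 21.5% to 44.3% of the TdTomato- level of the same mouse, with 30 to 44 counts each. *Pdgfra* is at chr5:75152292-75198215 on the plus strand, in 27 exonic blocks of 10024 bases.

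*Cspg4* encodes NG2, the surface proteoglycan of precursors and of pericytes. Its CPM in TdTomato- libraries of mice 2 to 6 was 3.36, 2.21, 1.97, 3.05 and 3.28. In TdTomato+ libraries it was 0.0453, 0.130, 0.0883, 0.478 and 0.407. The groups did not overlap, and among the TdTomato+ libraries mice 2, 3 and 4 held 1, 3 and 2 counts, at or under the limit of detection, while mice 5 and 6 held 11 and 9. The mean was 2.77 ± 0.641 CPM in TdTomato- and 0.230 ± 0.198 CPM in TdTomato+ libraries (SD, n = 5 each), a log2 fold change of -3.60 ± 0.36 (SE, edgeR adjusted p = 1.4e-05). *Cspg4* is at chr9:56865033-56899870 on the plus strand, in 10 exonic blocks of 11931 bases.

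The upstream stretches of these surface protein genes are shown because the genes mark the same precursors and changed by unequal amounts. Both come from the RefSeq promoter windows of GRCm38.p6, chr5:75152001-75152250 for *Pdgfra* and chr9:56864854-56865032 for *Cspg4*, both on the plus strand and both ending before the annotated start. Capitals mark a match to CANNTG in *Pdgfra* and to ACAAT, read on the minus strand, in *Cspg4*.
Pdgfra upstream: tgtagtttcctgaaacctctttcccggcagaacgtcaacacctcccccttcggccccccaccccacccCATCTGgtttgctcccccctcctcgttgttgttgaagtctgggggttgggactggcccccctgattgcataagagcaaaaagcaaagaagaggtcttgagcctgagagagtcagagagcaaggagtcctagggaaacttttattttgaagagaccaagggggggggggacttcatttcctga
Cspg4 upstream: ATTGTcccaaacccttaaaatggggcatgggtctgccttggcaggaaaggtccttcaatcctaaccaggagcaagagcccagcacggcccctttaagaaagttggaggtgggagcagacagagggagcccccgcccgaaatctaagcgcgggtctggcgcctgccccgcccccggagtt
The whole *Pdgfra* window held 2 CANNTG matches and 0 of the others, and that of *Cspg4* held 0 CANNTG and 0 CCAAT matches and 1 ACAAT match. RefSeq promoter windows were found for 5 of the 7 genes.

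*Pdgfra* fell by less than *Cspg4* within every mouse, with either prior count. With a prior count of 2 the within-mouse log2 change of *Pdgfra* minus that of *Cspg4* was 1.70 ± 0.881 (SD, n = 5), from 0.630 to 2.82, and positive in 5 of 5 mice (two-sided exact sign-flip permutation p = 0.062, the smallest possible, also after adjustment over the 2 pairs). In TdTomato- libraries the ratio of *Pdgfra* to *Cspg4*, per kilobase of exon, was 2.31, 2.21, 3.47, 1.98 and 2.29 in mice 2 to 6. Over the 10 libraries *Pdgfra* was most like *Slc9a9* and *Rgs10*, with RMS differences of 0.165 and 0.195, and *Cspg4* was most like *Frem2* and *Selenbp1*, with 0.312 and 0.335.

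Genes of other cell types known for these surface proteins were measured beside them, in tissue from which the meninges had been removed according to the study's methods. The pericyte and smooth muscle list, 4 of whose 12 genes had values, summed to 86.8 to 105.6 CPM in TdTomato- and 5.52 to 7.26 CPM in TdTomato+ libraries. Its members *Notch3*, *Myl9* and *Rgs5* were lower, and *Abcc9* did not pass the test. *Notch3*, which neural progenitors also express, made up most of the sum with 87.3 CPM in TdTomato- libraries, and *Rgs5* and *Abcc9* were at 1.71 and 1.04 CPM. The meningeal and perivascular fibroblast list, with 4 of 12 genes measured, summed to 150.7 to 180.7 CPM in TdTomato- and 56.4 to 76.3 CPM in TdTomato+ libraries, and 3 of the 4 were lower. *Fn1*, also expressed outside the meninges, made up most of that sum with 152 CPM in TdTomato- libraries, and *Dcn* was at 0.837 CPM. By the same test, 39.4% of all genes were lower. Neither list had a gene at or under 3 counts in every library of a group. Their part in the *Cspg4* and *Pdgfra* values was not tested.

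**Figure D3:**
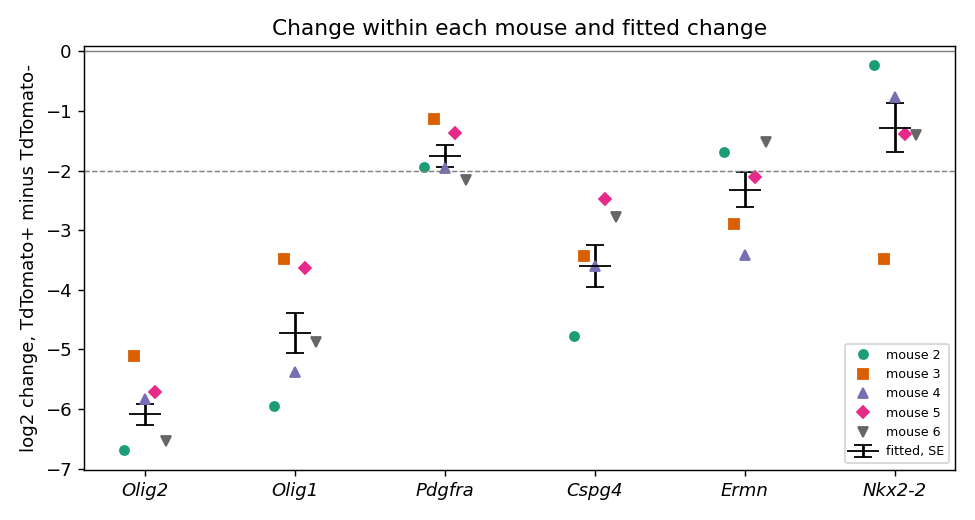
Log2 change from TdTomato- to TdTomato+ of each measured gene, within each mouse (coloured points, log2 CPM with prior count 2) and as fitted (black bar with SE); the dashed line is the DEG limit of -2. *Olig2* lies lowest, and the within-mouse changes of *Pdgfra*, *Ermn* and *Nkx2-2* spread to both sides of the limit.

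*Nkx2-2* encodes a homeodomain factor of ventral progenitors that acts in oligodendrocyte differentiation. In TdTomato- libraries of mice 2 to 6 its CPM was 0.547, 0.829, 4.41, 1.27 and 0.732. In TdTomato+ libraries it was 0.453, 0, 2.56, 0.435 and 0.226. Mouse 4 was highest in both populations, and its TdTomato+ value exceeded the TdTomato- values of the 4 other mice. The mean was 1.56 ± 1.62 CPM in TdTomato- and 0.735 ± 1.04 CPM in TdTomato+ libraries (SD, n = 5 each), and the log2 fold change was -1.28 ± 0.41 (SE, edgeR adjusted p = 0.019). Without mouse 4 the means were 0.844 ± 0.306 and 0.279 ± 0.212 CPM (SD, n = 4 each). The call rested on the pairing of the libraries: without the block the log2 fold change was -1.06, with an edgeR adjusted p of 0.262. Without mouse 5 it was -1.22 with an adjusted p of 0.0582.

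The high level in mouse 4 was shared by few genes. Only 5 genes were more than 2-fold above every one of the 4 other mice in both populations of mouse 4 (CPM with 0.1 added), namely *Nkx2-2*, *Lhx1*, *Mab21l2*, *Hsd11b2* and *Ddc*. For mice 2, 3, 5 and 6 such genes numbered 3, 0, 1 and 0. *Nkx2-2* had the counts 14, 24, 110, 32 and 21 in TdTomato- libraries and 10, 0, 58, 10 and 5 in TdTomato+ libraries. *Lhx1*, a LIM homeodomain factor gene, had 101, 183, 462, 124 and 155 counts in TdTomato- libraries and 5, 18, 102, 19 and 9 in TdTomato+ libraries. The last 4 of the 5 genes were named after their values were seen. The diencephalic list, 6 of whose 12 genes had values, summed to 76.7, 70.9, 132.4, 81.0 and 49.9 CPM in TdTomato- libraries of mice 2 to 6 and to 11.9, 15.8, 21.02, 18.3 and 9.04 CPM in TdTomato+ libraries. It, too, was highest in mouse 4 in both populations, and its part in the *Nkx2-2* values was not tested. The genes most like *Nkx2-2* were *Tal1* and *Irx2*, at RMS differences of 0.729 and 0.937, which were the largest nearest-gene differences among the 6 genes. *Nkx2-2* is at chr2:147177546-147194243 on the minus strand, and 9.7% of its 2875 exonic bases overlap *Nkx2-2os* on the other strand.

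*Ermn* encodes ermin, an actin-binding protein of the outer myelin tongue. In TdTomato- libraries of mice 2 to 6 its CPM was 3.68, 4.42, 3.13, 3.65 and 3.66. In TdTomato+ libraries it was 1.09, 0.521, 0.221, 0.783 and 1.22. The TdTomato- libraries varied little, mouse 4 was lowest in both populations, and the groups did not overlap. The mean was 3.71 ± 0.463 CPM in TdTomato- and 0.766 ± 0.409 CPM in TdTomato+ libraries (SD, n = 5 each), a log2 fold change of -2.32 ± 0.29 (SE, edgeR adjusted p = 6.6e-05). Over the 10 libraries *Ermn* was most like *Pou3f3*, a POU homeodomain factor gene of neural progenitors and cortical neurons, and *Sfrp2*, a secreted modulator of WNT signalling, with RMS differences of 0.245 and 0.295. *Ermn* is at chr2:58045113-58052864 on the minus strand, in 3 exonic blocks of 3635 bases, of which 6.5% overlap *Galnt5* on the other strand.

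Mean levels were also compared between genes per kilobase of exon. In TdTomato- libraries the levels were 14.0 CPM per kilobase for *Olig2*, 4.58 for *Olig1*, 1.02 for *Ermn*, 0.554 for *Pdgfra*, 0.542 for *Nkx2-2* and 0.232 for *Cspg4*. In TdTomato+ libraries they were 0.256 for *Nkx2-2*, 0.211 for *Ermn*, 0.202 for *Olig2*, 0.171 for *Olig1*, 0.162 for *Pdgfra* and 0.0193 for *Cspg4*. The first 5 of these cannot be put in order, since each neighbour differed by less than the larger of the SDs over libraries and their places changed on leaving out 1 mouse. Without mouse 4 the *Nkx2-2* means were 0.294 CPM per kilobase in TdTomato- and 0.0969 in TdTomato+ libraries, the latter below *Pdgfra*. *Cspg4* was lowest in TdTomato+ libraries and *Olig2* highest in TdTomato- libraries whichever mouse was left out. In TdTomato- libraries *Nkx2-2* differed from *Ermn*, from *Pdgfra* and from *Cspg4* by less than its own SD. No test was made between genes within a population.

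Among other genes of oligodendrocyte precursors and their specification, 20 of 25 listed had values. Of these, 13 were lower and 5 higher in TdTomato+ libraries, and 2 did not pass the test, with a median log2 fold change of -1.98. Of all genes, 39.4% were lower and 37.9% were higher. *Bcan* was lower (log2 fold change -4.52). *Nkx6-2*, a homeobox gene of ventral progenitors, was at or under 3 counts in every TdTomato+ library and at least 7.77-fold lower, with the limit of 3 counts taken per library. The 5 higher genes were *Vcan*, *Ptprz1*, *Cacng4*, *Tnr* and *Lhfpl3*, of which the last 2 were named after their values were seen. The call on *Lhfpl3*, at 12.6 ± 10.7 CPM in TdTomato+ libraries (SD, n = 5; edgeR adjusted p = 0.023), was lost with robust estimation, in DESeq2 and without mouse 3, 4 or 5, with adjusted p from 0.0616 to 0.106. The extracellular matrix proteoglycan versican (*Vcan*) averaged 388 ± 65.8 CPM over TdTomato- and 1619 ± 233 CPM over TdTomato+ libraries (SD, n = 5 each), a log2 fold change of 2.07. *Tnr*, the matrix protein tenascin-R, rose by 2.58 on the log2 scale, *Cacng4* by 0.91 and the receptor phosphatase gene *Ptprz1* by 0.58. *Vcan*, *Ptprz1*, *Cacng4* and *Tnr* are also known from neurons and radial glia.

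Of 20 listed myelin and mature oligodendrocyte genes, 9 had values, and 5 were lower, 3 higher and 1 not called, with a median log2 fold change of -0.14, beside 39.4% lower and 37.9% higher over all genes. *Tcf7l2*, a transcription factor gene of differentiating oligodendrocytes and of the thalamus, was lower by far the most, from 106 ± 65.0 to 9.75 ± 10.4 CPM (SD, n = 5 each; log2 fold change -3.73, edgeR adjusted p = 5.3e-07). *Mbp*, for myelin basic protein, averaged 27.6 ± 3.56 CPM over TdTomato- and 25.1 ± 3.61 CPM over TdTomato+ libraries (SD, n = 5 each), with a log2 fold change of -0.14 (edgeR adjusted p = 0.035). This call was lost in 6 of 13 alternatives, with adjusted p from 0.0713 to 0.270: without the block, in DESeq2, and without mouse 3, 4, 5 or 6. *Cnp* fell by 0.44 on the log2 scale, and *Sirt2*, a deacetylase gene, rose by 0.37. *Tspan2*, named after its values were seen, rose by 0.78 on the log2 scale. Of the 5 lower myelin genes, only *Tcf7l2* fell by more than *Ermn*, which fell by 2.32 on the log2 scale.

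For the signals to the lineage, the PDGF list held 4 measured genes of 5. *Pdgfa*, the ligand of *Pdgfra*, averaged 7.66 ± 0.922 CPM over TdTomato- and 9.76 ± 1.39 CPM over TdTomato+ libraries (SD, n = 5 each; log2 fold change 0.34, edgeR adjusted p = 0.030), a call that was lost on leaving out mouse 2, 3 or 5. *Pdgfrb*, the receptor of pericytes, fell by 3.94 on the log2 scale. *Pdgfb* and *Pdgfc* did not pass the test. Of the 11 hedgehog pathway genes, 10 were lower, 7 of them DEGs, 0 were higher, and the median log2 fold change was -3.48. Of all genes, 39.4% were lower, 9.74% were lower DEGs and 37.9% were higher. Among the hedgehog genes, the log2 fold change was -4.58 for the effector *Gli3*, -1.40 for the coreceptor *Cdon*, -0.72 for *Boc* and -0.59 for *Ptch1*.

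Partner and neighbour genes of the families were also measured. Of the 7 Id and E-protein genes, whose products bind bHLH factors, 6 were lower and *Id2* was higher, from 110 ± 21.2 to 324 ± 47.5 CPM (SD, n = 5 each; log2 fold change 1.57). Of 6 genes of the ezrin, radixin and moesin (ERM) family and its adaptors, related to ermin by an actin-binding motif, 4 were lower, with moesin (*Msn*) at a log2 fold change of -4.88, and 2 higher. In the 500 kb around the *Olig* genes, a window chosen after the values were seen, 19 other genes had values, of which 13 were higher, 4 lower and 2 not called, with a median log2 fold change of 0.32. Over all genes, 37.9% were higher and 39.4% lower. Within 500 kb of *Pdgfra*, *Gsx2*, a homeobox gene of the lateral ganglionic eminence, lay 74399 bases away and had a log2 fold change of -6.58, while *Kit* was higher at 2.34. *Gsx2* and *Kit* were likewise named after their values were seen.

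The lists of other cell types are read beside the 39.4% of all genes that were lower, the 9.74% that were lower DEGs and the 37.9% that were higher. All 12 genes of the subpallial list were lower DEGs, with a median log2 fold change of -4.90. Their summed level went from 1403 to 1770 CPM in TdTomato- libraries to 41.0 to 76.4 CPM in TdTomato+ libraries. *Dlx2* and *Sp9* belong to this list. All 11 cortical radial glia genes were lower DEGs, with a median of -3.97. Of 8 deep-layer cortical neuron genes, 7 were higher, 4 of them DEGs, with a median of 1.96. Of the remaining lists, 8 of 8 microglial, 6 of 6 erythroid, 6 of 6 diencephalic, 3 of 4 neural crest and 1 of 3 endothelial genes with values were lower, and 1 neural crest gene, *Ngfr*, was higher. The lineage genes thus moved in the same direction as all measured genes of the subpallial, radial glia, microglial, erythroid and diencephalic lists. The part of these lists in the changes of the lineage genes was not tested.

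**Figure D4:**
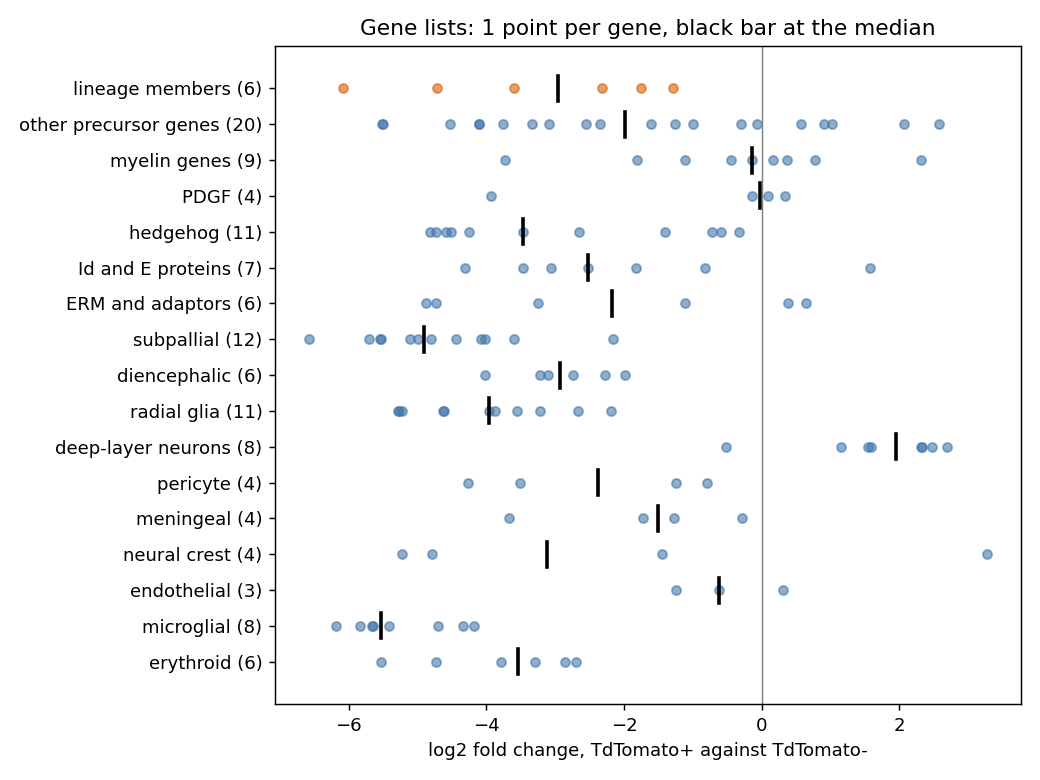
Log2 fold change of every measured gene of each list, TdTomato+ against TdTomato- (1 point per gene, black bar at the median, number of measured genes in parentheses). The 6 lineage genes all lie below 0, the other precursor genes and the myelin genes lie on both sides of 0, and 7 of 8 deep-layer neuron genes lie above 0.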

How the data were processed

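Live TdTomato+ and TdTomato- cells were sorted at 14.5 dpc, 1 day after tamoxifen, from 5 mouse numbers. Per the study's methods and the labels, the authors trimmed reads (Phred score 28), used STAR for alignment to GRCm38 (no more than 1 mismatch), retained unique reads and deposited whole-number counts of reads per gene. The annotation release and the strand setting are not given in the sources used here, and the kit and sequencer differ between the labels and the methods. Every gene of the table had over 0.5 CPM in at least 5 libraries. *Sox10* and other listed genes without counts were not analysed here.

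All 10 libraries (23429034 to 27286180 counts) were fitted with edgeR 4.0.16 (quasi-likelihood F-test, TMM scaling, mouse number as a block, as in the study's paired design), with Benjamini-Hochberg adjustment over 14300 genes. The SE of a log2 fold change was its size divided by the root of F. Within-mouse changes used log2 CPM with a prior count of 2. The fit was tested on simulated counts. Alternatives were no block, no filter, a filter at 1 CPM, RLE and upper-quartile scaling, robust estimation, other prior counts, DESeq2, a test against a fold limit and leaving out each mouse. The numbers pair the libraries: both populations of a number come from the same mouse number of the study's paired design. The correlation of the deviations of the paired libraries was 0.186 to 0.316. For libraries of different numbers, taken across the populations, it was -0.312 to 0.212. The lowest paired value, that of mouse 5, lay within the latter range. The study counts 5 mice, without saying whether each is 1 embryo or several, so p-values measure the spread between mouse numbers.

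The genes and lists were chosen with earlier results of these data known. Genes named were every lineage gene, of each other list at most the 4 genes with the highest mean CPM and any gene at or under 3 counts in every library of a population, *Grem1*, and the 2 genes most like each lineage gene. Other named genes are said in the text to be named after their values were seen. Gene coordinates are from GENCODE M21 (GRCm38) and 14271 of 14300 gene IDs had a symbol there. Upstream sequences are from RefSeq (GRCm38.p6). A gene of the myelin list is counted but not reported here by name.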

Additional observations from a re-analysis of the deposited data

Results flagged for a closer look

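On log2 CPM, no group of a lineage gene passed the limit below. The limit was not applied to CPM, on which *Nkx2-2* in mouse 4 was 3.30-fold (TdTomato-) and 4.81-fold (TdTomato+) above the next mouse (0.1 added). The measure was the gap of 1 library to its nearest neighbour, as a share of the group's range of log2 CPM. Of 146 groups of 5 libraries examined over the genes and list sums described, 7 passed Dixon's limit of 0.71. Chance flags about 1 in 20 groups. In TdTomato- libraries these were *Rgs5*, with mouse 2 lowest (0.894), *Dct*, with mouse 2 lowest (0.745), and *Fn1*, with mouse 3 highest (0.746). In TdTomato+ libraries they were *Tcf12*, with mouse 2 lowest (0.738), *Esam*, with mouse 5 lowest (0.738), *Kdr*, with mouse 6 lowest (0.741), and *C1qa*, with mouse 4 lowest at 0 counts (0.969).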

How the results depend on the processing

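The direction of all 6 lineage genes was the same in every alternative run. Without the replicate block *Nkx2-2* had a log2 fold change of -1.06 (edgeR adjusted p = 0.262), which left 5 of the 6 genes called, and the block changed no other call on a lineage gene; among the list genes *Mbp* lost its call (-0.14, adjusted p = 0.270). The *Olig1* minus *Olig2* difference was 1.11 with a prior count of 0.5, positive in 4 of 5 mice. Against a fold limit of 2 on the log2 scale in place of 0, *Pdgfra* (-1.75), *Nkx2-2* (-1.28) and *Ermn* (-2.32) did not pass and 3 lineage genes did, with 1077 of all 14300 genes lower; this test then called 7 lower and 1 higher of the other precursor genes, 1 lower and 0 higher of the myelin genes, 4 higher deep-layer genes, 1 lower meningeal gene, 3 lower erythroid genes, and 0 lower endothelial and 0 higher PDGF, ERM and Id genes. With upper-quartile scaling 2 endothelial genes were lower.

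Leaving out each mouse gave log2 fold changes of -6.38 to -5.91 for *Olig2*, -5.17 to -4.39 for *Olig1*, -4.001 to -3.27 for *Cspg4*, -2.54 to -2.10 for *Ermn*, -1.90 to -1.64 for *Pdgfra* and -1.62 to -0.997 for *Nkx2-2*, which did not pass without mouse 5. The number of higher PDGF genes was then 0 to 1 (0 without mouse 2, 3 or 5), that of lower deep-layer genes 0 to 1 (1 without mouse 6), that of lower endothelial genes 1 to 2 (2 without mouse 2) and that of higher ones 0 to 1 (1 without mouse 5). Apart from the test against a fold limit, *Mbp* lost its call in 6, *Lhfpl3* in 5, *Pdgfa* in 3 and *Hba-a1* in 2 of 13 alternatives. A filter at more than 1 CPM left *Nkx2-2* out of the test. Depth limits *Cspg4*, *Olig1* and *Nkx2-2* in TdTomato+ libraries, with 3, 2 and 1 of 5 libraries at or under 3 counts; intervals of the counting error were not added to the spread between mice.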
